A study of Mus musculus with 18 samples.

Results

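Klf2, S1pr1, Ccr7, Cxcr5, Cxcr4, Gpr183, Fcer2a and Cr2 are genes of B cell migration, retention and follicular surface identity. They were chosen by name, with earlier results of these data known, and make up 8 of the 28374 genes that could be matched by name and chromosome between the 129 and the Cast read count tables. All 8 were lower after stimulation with CpG when the reads of both alleles were summed, from 1.88-fold for Ccr7 to 26.8-fold for Klf2. The fall was called on each allele for the 7 genes with enough reads for the main test on both. The reads were not divided equally between the alleles: Klf2, Cxcr5 and S1pr1 were read mainly from the Cast allele, and the allele balance of Cxcr4 depended on the replicate.

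The cells were CD23+ B cells from the spleen of female F1 mice of 129S1 and Cast parents that carried the genotype Xist+/-, in which the Cast X chromosome is always the inactive one, per the labels. The mutated Xist allele and the skewed X inactivation are shared by both groups compared here. The naive group had 3 samples with no treatment, and the stimulated group had 3 samples treated in vitro with 1 µM CpG for 24 h. CpG is a synthetic DNA that B cells sense through the endosomal receptor TLR9. The labels give no age, do not say whether animals were pooled and name no untreated culture, so the agent and the time in culture cannot be told apart. The series lists 18 samples, of which the 12 from another cross are not analysed here. The total RNA libraries were made with a stranded kit.

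Naive B cells circulate between blood and lymphoid organs by switching between chemoattractant receptors. CXCR5 draws them into follicles towards CXCL13, CCR7 towards the T cell zone, GPR183 (also called EBI2) towards oxysterols at the follicle edge, CXCR4 towards CXCL12 in bone marrow and germinal centre dark zones, and S1PR1 back into blood along sphingosine-1-phosphate. KLF2 is a quiescence transcription factor that drives S1pr1 in lymphocytes, and in B cells it also restrains marginal zone identity. CD23, encoded by Fcer2a, is the low-affinity IgE receptor of follicular B cells, and CD21/CD35, encoded by Cr2, is the complement receptor that lowers the threshold for B cell activation.

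Promoter sequence of 5 of the 8 genes was found in RefSeq's set for the C57BL/6J reference, build GRCm38.p6, which is neither parent's genome. The 250 bases before the annotated start are shown for 4 genes that fell and whose window held letters that factors of this pathway are known to bind, so that the control regions of genes that moved together can be compared. Capitals mark matches on either strand to CACCC, the core bound by KLF proteins, which reads GGGTG on the other strand, to the MEF2 consensus site, and to TGGGAA, the core bound by RBPJ below Notch. The motifs were chosen after the windows had been seen. The Klf2 window lies at chr8:72318812-72319061 on the plus strand, and the windows of Fcer2a at chr8:3694175-3694424, Cr2 at chr1:195176720-195176969 and Cxcr4 at chr1:128592300-128592549 lie on the minus strand. Fcer2a has 3 annotated starts, of which the outermost is used, and the Cr2 start lies within the span of the RefSeq gene.
Klf2: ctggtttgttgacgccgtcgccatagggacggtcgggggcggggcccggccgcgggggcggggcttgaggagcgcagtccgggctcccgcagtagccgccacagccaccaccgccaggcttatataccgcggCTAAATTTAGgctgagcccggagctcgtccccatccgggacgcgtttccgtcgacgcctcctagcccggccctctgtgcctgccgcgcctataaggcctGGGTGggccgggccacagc
Fcer2a: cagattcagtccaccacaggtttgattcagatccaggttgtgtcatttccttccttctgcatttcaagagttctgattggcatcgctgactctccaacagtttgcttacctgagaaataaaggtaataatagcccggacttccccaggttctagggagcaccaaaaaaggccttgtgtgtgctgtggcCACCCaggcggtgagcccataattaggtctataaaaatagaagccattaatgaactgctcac
Cr2: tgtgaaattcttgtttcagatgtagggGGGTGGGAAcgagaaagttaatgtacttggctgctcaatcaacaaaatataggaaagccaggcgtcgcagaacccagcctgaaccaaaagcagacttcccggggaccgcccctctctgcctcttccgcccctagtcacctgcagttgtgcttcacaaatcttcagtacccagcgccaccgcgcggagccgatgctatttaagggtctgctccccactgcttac
Cxcr4: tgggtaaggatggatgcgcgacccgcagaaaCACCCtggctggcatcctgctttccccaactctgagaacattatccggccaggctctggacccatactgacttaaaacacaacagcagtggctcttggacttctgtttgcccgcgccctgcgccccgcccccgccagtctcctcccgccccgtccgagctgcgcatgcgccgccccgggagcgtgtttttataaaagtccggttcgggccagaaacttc
The Klf2 window held a MEF2 consensus match 118 bases before the start and a CACCC match 19 bases before it. The MEF2 consensus occurred in 167 of the 32851 windows in the set, 0.508%, whereas CACCC occurred in 52.0% and TGGGAA in 21.6%, so the latter letters are common in windows of this length. In Cr2 the TGGGAA match began 220 bases before the start and overlapped a CACCC match that began 223 bases before it. The first base of the CACCC match lay 62 bases before the start in Fcer2a and 219 bases before it in Cxcr4. The window of Gpr183, not shown, held a TGGGAA match 64 bases before the start. TGTTTAC, the core bound by FOXO proteins, and the STAT6 consensus site were searched as well and occurred in 3.17% and 5.85% of all windows, but in none of the 4 shown. The other annotated starts of Fcer2a, whose windows are not shown, did hold such letters: one had a STAT6 match that began 168 bases before the start and TGGGAA matches that began 248 and 168 bases before it, and the other had a TGGGAA match that began 205 bases before it. These matches describe letters in a reference window and no binding was measured.

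Gene reads per library ranged from 1987266 to 2928236 in the 129 tables and from 2465073 to 3321753 in those for Cast. Markers of the labelled cell type were present throughout, with 8 of 8 matched B cell genes, Ms4a1, Cd79a and Pax5 among them, at 531 or more summed reads in every sample. Their summed level ranged from 10350.5 to 11714 CPM in naive and from 3824 to 4470.1 CPM in stimulated samples, where CPM is reads per 1000000 after scaling of the libraries with edgeR's TMM factors. The naive samples also held macrophage RNA: 16 macrophage markers summed to 8351, 3895 and 5146 CPM in naive samples 1, 2 and 3, and to 45.8, 34.1 and 41.4 CPM in stimulated samples 1, 2 and 3. For 16 of 16 of these markers the highest stimulated level lay below the lowest naive level, Csf1r, C1qa and Vcam1 were each at 3 reads or fewer there, and none was at 0 in all 3. T cell markers summed to between 63.8 and 204 CPM in naive and between 29.3 and 36.1 CPM in stimulated samples, and endothelial markers to between 123 and 201 and between 3.69 and 6.44 CPM. Most endothelial reads in naive samples came from Stab2, with 820, 579 and 420 in the naive and 0, 3 and 0 in the stimulated samples. Cdh5, another endothelial marker, had 19, 24 and 22 reads in the naive and 18, 21 and 33 in the stimulated samples. Markers of NK cells, neutrophils, dendritic cells and stromal cells each summed to 55.1 CPM or less in every sample, erythroid markers to 208 CPM or less, and plasma cell markers to between 469.9 and 703 CPM in naive and between 523 and 595 CPM in stimulated samples. The plasma cell sums of the groups overlapped, and the sum of each other list was lower in every stimulated than in any naive sample. These lower sums move with every fall reported here, and their part in the falls was not tested. Xist, the gene altered in these mice, was read mainly from the inactive Cast X chromosome, which gave between 86.4% and 88.9% of its reads in all 6 samples. Which part of Xist was altered is not given in the sources used here, so this does not check the genotype.

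Summed over the alleles, 8 of 8 genes were called lower after stimulation by edgeR's quasi-likelihood test at an adjusted p under 0.05. Among all 10343 genes tested in the same fit, 34.4% were called lower. In either direction, 55.2%, 62.2% and 68.7% of all tested genes were called in the 129, Cast and summed tables. On the 129 allele 7 of the 7 tested genes were called lower, beside 27% of all tested genes, and on the Cast allele 8 of 8, beside 31.5%. The median log2 change of the tested genes was -3.19, -3.40 and -3.39 in the 129, Cast and summed tables, beside -0.01, -0.04 and -0.01 over all genes tested. No stimulated value of any of these genes reached the lowest naive value in any of the tables, a separation seen for 32.2%, 34.8% and 37% of all tested genes. In bulk RNA, fewer cells that carry a transcript and less of it per cell cannot be told apart.

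**Figure D1:**
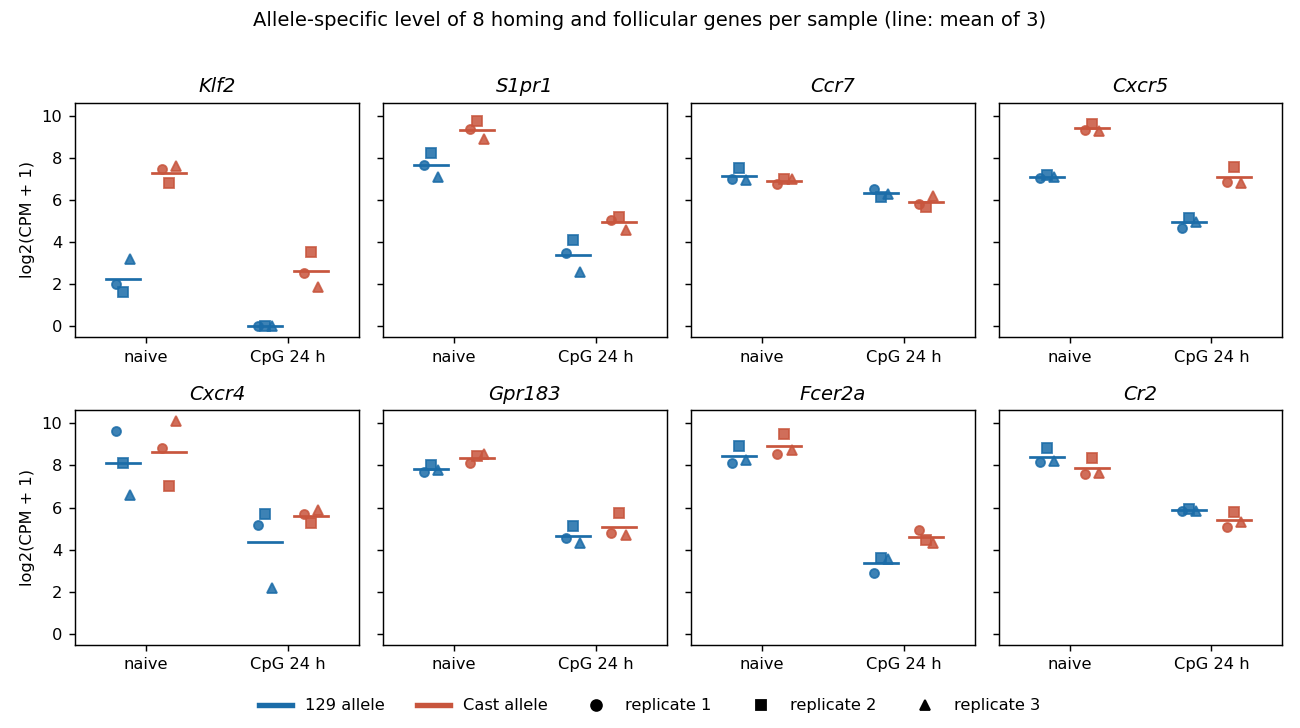
Level of each gene as log2(CPM + 1) in naive and CpG-stimulated samples, with 1 point per sample and allele (129 in blue, Cast in red, marker shape by replicate) and a line at the mean of 3. Every stimulated point lies below every naive point of the same allele, and the naive Cxcr4 points are spread widest, from 96.3 to 801 CPM on the 129 allele and from 129 to 1101 CPM on the Cast allele.

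Klf2 carried almost no 129 reads. In the Cast tables it stood at 175, 109.7 and 196 CPM in naive samples 1, 2 and 3 and at 4.73, 10.5 and 2.66 CPM in stimulated samples 1, 2 and 3. The lowest naive sample was thus more than 10 times above the highest stimulated one, and the group means were 160.3 ± 45.1 CPM and 5.96 ± 4.05 CPM (SD, n = 3 each). Cast Klf2 fell by 4.74 (SE 0.400, adjusted p = 1.03e-05) on the log2 scale in edgeR's test, with 3.72% of the naive level left. From the 129 allele 7, 5 and 16 Klf2 reads were counted before and 0, 0 and 0 after stimulation, too few to enter the main test. In edgeR's test without the filter on low counts its log2 change was -6.46 (SE 1.38, adjusted p = 0.00155), which rests on these few reads. Against a floor of 3 reads per library, 129 Klf2 was at least 4.11-fold lower.

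S1pr1, the sphingosine-1-phosphate receptor and best-known target of KLF2, had falls of nearly the same size on both alleles. On the Cast allele it stood at 667, 847 and 468 CPM in the naive and 32.1, 35.2 and 22.8 CPM in the stimulated samples. On the 129 allele it stood at 201, 304 and 134 CPM and 10.1, 15.9 and 4.89 CPM. On either allele naive sample 2 was highest and naive sample 3 lowest, and stimulated sample 3 was the lowest of all. The Cast value fell by 4.46 (SE 0.263, adjusted p = 1.75e-06) and the 129 value fell by 4.37 (SE 0.504, adjusted p = 6.03e-04) on the log2 scale in edgeR's test. Summed over the alleles, 4.71% of the naive S1pr1 level was left, and 3.16% of all tested genes fell further.

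The chemokine receptors fell to different extents. Ccr7 changed least of the 8 genes. It stood at 128, 182 and 123 CPM on the 129 allele and 106, 125 and 128 CPM on the Cast allele in the naive samples, against 91.3, 69.1 and 76.4 CPM and 55.1, 49.0 and 72.5 CPM in the stimulated samples. The lowest naive value lay above the highest stimulated value on either allele, although on the 129 allele the gap between them was smaller than the range of the naive samples. Ccr7 fell by 0.87 (SE 0.191, adjusted p = 0.00627) on the 129 and fell by 1.02 (SE 0.170, adjusted p = 6.42e-04) on the Cast allele on the log2 scale, so that 53.3% of the summed level was left. A larger fall than that of summed Ccr7 was seen for 24.3% of all tested genes.

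When summed, Cxcr5 was the most even of the 8 genes among naive samples, the highest being 1.25 times the lowest. Its 129 level was 131, 143 and 136 CPM in the naive and 24.5, 34.7 and 30.4 CPM in the stimulated samples, and its Cast level was 647, 787 and 612 CPM and 114, 189 and 110.4 CPM. Stimulated sample 2 kept the highest level on both alleles. Cxcr5 fell by 2.19 (SE 0.161, adjusted p = 3.62e-05) and fell by 2.30 (SE 0.223, adjusted p = 2.29e-05) on the log2 scale on the 129 and the Cast allele in edgeR's test, and 20.9% of the summed level was left.

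Cxcr4 was the most variable gene among naive samples. Summed over the alleles it stood at 735, 236 and 756 CPM in naive samples 1, 2 and 3 and at 52.9, 52.3 and 40.0 CPM in stimulated samples 1, 2 and 3. Naive sample 2 was 3.20 times below the highest naive sample, yet well above all stimulated samples, which lay close together. The naive sample with the lowest Cxcr4 level was also the one with the lowest macrophage marker sum, whose part in this spread was not tested. Summed Cxcr4 fell by 3.57 (SE 0.469, adjusted p = 5.01e-04) on the log2 scale in edgeR's test, with 8.41% of the naive level left.
On single alleles the spread was wider. The 129 values were 801, 278 and 96.3 CPM in the naive and 35.6, 49.98 and 3.49 CPM in the stimulated samples, with replicate 3 lowest in both groups. The Cast values were 459, 129 and 1101 CPM and 50.1, 37.3 and 57.7 CPM, with replicate 3 highest in both groups. Cxcr4 fell by 3.72 (SE 1.18, adjusted p = 0.0432) on the 129 and fell by 3.54 (SE 0.717, adjusted p = 0.00365) on the Cast allele. The 129 call was lost in edgeR's test without naive sample 1 (log2 change -2.65, adjusted p = 0.101), naive sample 2 (-3.92, 0.0792), stimulated sample 1 (-3.85, 0.0994), stimulated sample 2 (-4.34, 0.0764) or stimulated sample 3 (-3.19, 0.0583), and the Cast call without stimulated sample 2 (-3.36, 0.0528). The summed fall was called whichever sample was left out, with log2 changes between -3.94 and -3.32.

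Gpr183, the oxysterol receptor, fell by nearly the same factor on both alleles. It stood at 207, 261 and 219 CPM on the 129 allele and 276, 349.9 and 372 CPM on the Cast allele in the naive samples. The stimulated samples held 22.7, 33.7 and 18.8 CPM and 26.8, 52.7 and 24.6 CPM, with sample 2 highest on both alleles as for Cxcr5. Gpr183 fell by 3.19 (SE 0.233, adjusted p = 3.62e-05) on the 129 and fell by 3.26 (SE 0.283, adjusted p = 1.20e-05) on the Cast allele on the log2 scale in edgeR's test, and 10.9% of the summed level was left.

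Fcer2a encodes CD23, the surface protein by which the label defines these cells, so its presence in naive cells is not a finding. On the 129 allele it stood at 274, 489 and 308 CPM in the naive and 6.47, 11.3 and 10.8 CPM in the stimulated samples. On the Cast allele it stood at 371, 720.4 and 420.5 CPM and 29.9, 21.0 and 19.2 CPM. Naive sample 2 was the highest on both alleles, and the stimulated samples lay more than 10 times below every naive sample. Fcer2a fell by 5.22 (SE 0.328, adjusted p = 2.96e-05) on the 129 and fell by 4.43 (SE 0.300, adjusted p = 3.29e-06) on the Cast allele on the log2 scale, and 3.98% of the summed level was left. The 129 fall was the largest of the 7 tested genes on that allele.

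Cr2, the complement receptor gene, kept more of its expression. Its 129 values were 284, 460.4 and 299 CPM in the naive and 55.4, 59.9 and 56.9 CPM in the stimulated samples. Its Cast values were 189.9, 329 and 198 CPM and 33.1, 54.3 and 39.1 CPM. Naive sample 2 was again highest, while the stimulated 129 values were nearly alike. Cr2 fell by 2.60 (SE 0.205, adjusted p = 4.97e-05) on the 129 and fell by 2.50 (SE 0.261, adjusted p = 3.62e-05) on the Cast allele on the log2 scale, and 17.4% of the summed level was left.

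**Figure D2:**
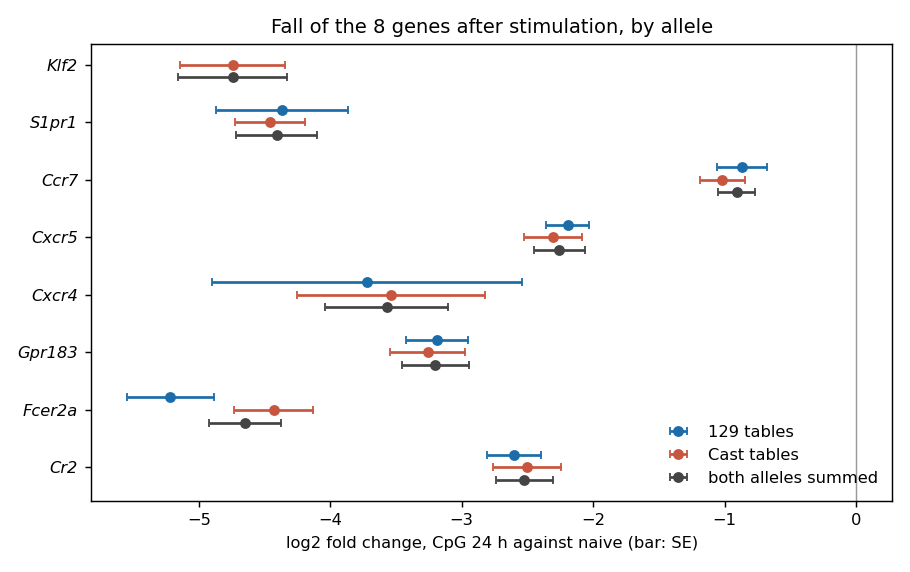
Log2 fold change of each gene after CpG, as a point with its standard error, in the 129 tables (blue), the Cast tables (red) and with both alleles summed (grey). The 2 alleles of Fcer2a lie further apart, at -5.22 and -4.43, than the sum of their standard errors, Klf2 has no 129 point, Ccr7 is nearest to 0 at -0.91 when summed, and the 129 bar of Cxcr4 is the widest with an SE of 1.18.

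In order of the summed log2 change, the genes ran from Klf2 (-4.74), Fcer2a (-4.65) and S1pr1 (-4.41) through Cxcr4 (-3.57) and Gpr183 (-3.20) to Cr2 (-2.53), Cxcr5 (-2.26) and Ccr7 (-0.91). The first 3 lay within 1 standard error of Klf2 (0.414) of each other, Gpr183 lay within 1 standard error of Cxcr4 (0.469), and Cr2 and Cxcr5 differed by less than the sum of their errors (0.217 and 0.196). Ccr7 stood apart, with an error of 0.140. Differences between genes were not tested.

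The Cast share of a gene, its Cast reads over the reads of both alleles, showed how unequally the reads were divided. How a read was given to a strain is not given in the sources used here. Unequal assignment of reads and unequal expression of the alleles therefore cannot be told apart. Over 7264 autosomal genes that reached 30 reads in all 6 samples, this share had a median of 52.0%, and the middle 90% of genes lay between 35.1% and 77.3%. Klf2 shares were 98.5%, 98.4% and 96.6% before stimulation, and 100% in all 3 samples after it. The stimulated samples together held 0 of 58 Klf2 reads on the 129 allele, which allows a 129 share of up to 5.17%, and the naive samples held 28 of 1253, or 2.23%, so a change was not detectable at this depth. Cxcr5 had a mean share of 85.1% ± 1.22 in naive and 83.8% ± 2.59 in stimulated samples (SD, n = 3 each), and S1pr1 78.6% ± 2.07 and 78.3% ± 6.46. Gpr183 leaned to the Cast allele less, at 62.5% ± 3.43 and 60.8% ± 3.43. Ccr7, at 49.2% ± 5.33 and 46.2% ± 6.10, and Cr2, at 44.0% ± 1.01 and 45.4% ± 5.27, lay near or below an equal share. In these 5 genes the groups overlapped, and their means differed by less than the larger of the SDs (two-sided exact permutation p between 0.6 and 0.9, with 0.1 the smallest possible).

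Fcer2a had a higher Cast share in each stimulated sample than in any naive one, as had Klf2. The share of all genes that separate in this way was not counted. Its naive shares were 60.7%, 62.9% and 61.4%, and its stimulated shares 84.1%, 68.0% and 67.7%. The mean went from 61.7% ± 1.12 to 73.3% ± 9.36 (two-sided exact permutation p = 0.1, which is the lowest this design can give). Stimulated sample 1 stood highest, and without it the difference of 11.6 percentage points became 6.16. Its 95% Wilson interval was 76.2% to 89.7%. In the other stimulated samples the intervals were 58.3% to 76.3% and 57.8% to 76.2%, which cover counting error only. Trappc5, which overlaps Fcer2a in the reference annotation, had Cast shares between 71.7% and 81.0% in the 6 samples, and its part in the remaining Fcer2a reads was not tested.

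The Cxcr4 shares split by replicate number. They were 39.6%, 34.9% and 93.0% in naive samples 1, 2 and 3 and 61.6%, 46.2% and 95.1% in stimulated samples 1, 2 and 3. Replicate 3 was thus almost all Cast in both groups, and the means of 55.8% ± 32.3 and 67.6% ± 25.02 came from overlapping groups (two-sided exact permutation p = 0.5). Within each replicate number the stimulated share was the higher one, by 22.1, 11.3 and 2.09 percentage points. In replicate 3 the 95% Wilson intervals, 92.0% to 93.9% before and 91.3% to 97.3% after stimulation, overlapped. Of the 7264 genes, 48 (0.661%) had the same form, with at least 90% Cast in both replicate 3 samples and between 25% and 75% in the other 4, by limits set after the values were seen. Without replicate 3 of both groups, Cxcr4 fell by 3.65 (adjusted p = 0.0147) on the 129, by 2.74 (adjusted p = 0.00745) on the Cast allele and by 3.20 (adjusted p = 0.00391) when summed, on the log2 scale in edgeR's test.

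**Figure D3:**
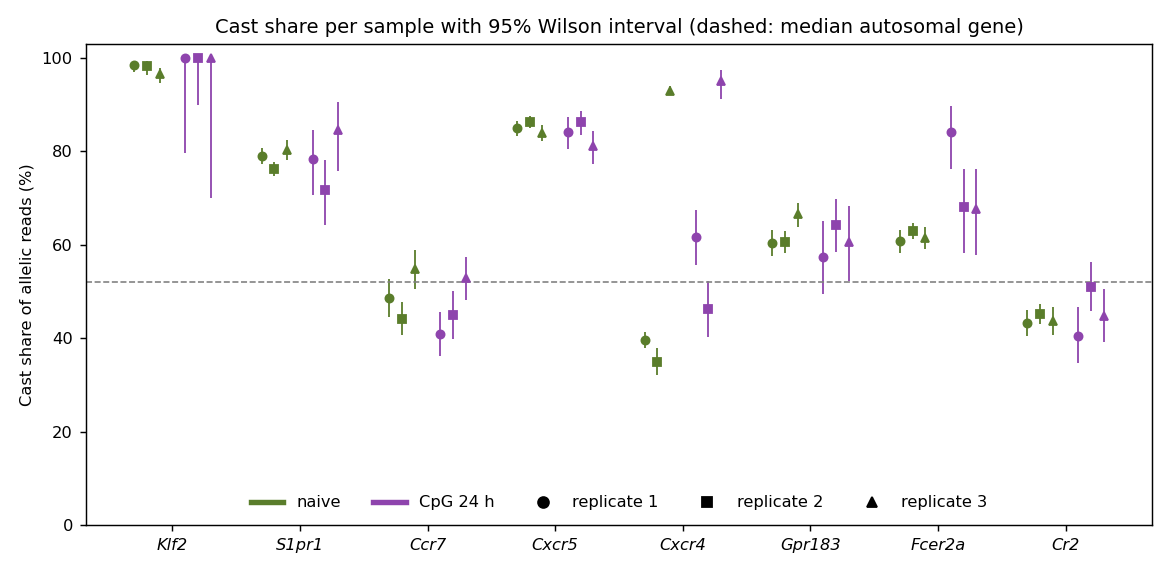
Cast share of allelic reads in percent for each gene, with 1 point per sample (naive in green, CpG in purple, marker shape by replicate), 95% Wilson intervals and a dashed line at the median autosomal gene, 52.0%. Klf2 lies at 96.6% or above throughout, the 2 replicate 3 points of Cxcr4 lie at 93.0% and 95.1%, apart from its other 4, and the 3 stimulated Fcer2a points lie above the naive ones.

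Neighbouring genes shared these balances in part, where up to 4 measured genes on each side were read in the order of the reference annotation. The next 4 genes on one side of Klf2, namely Eps15l1, Cherp, Slc35e1 and Smim7, had Cast shares between 91.5% and 99.4% in all 6 samples, while on the other side the shares ran from 54.0% on average at Rab8a to 86.0% at Hsh2d. A share of at least 95% in all 6 samples was found for 38 of the 7264 genes, 0.523%. Around Cxcr4, the genes Dars and Mcm6 on one side reached Cast shares of 99.3% and 97.9% in a replicate 3 sample, against lowest shares of 48.9% and 51.5% in another, and beyond them Ubxn4 never exceeded 59.9%. At Ubxn4 and R3hdm1, the next genes on that side, both replicate 3 samples were still the highest of the 6, at 57.9% and 59.9% against 41.8% to 50.2%, and at 75.9% and 72.7% against 59.6% to 70.0%. Around Fcer2a 8 of 8 neighbours lay above 50% on average, with a median of 74.5%, and around Cxcr5 7 of 8, with a median of 78.9% and Ddx6 at 35.2% as the exception. The neighbours of S1pr1, Ccr7, Gpr183 and Cr2 had medians of 57.8%, 52.8%, 49.5% and 51.1%. Their means ran from 45.6% to 52.4% around Gpr183 and from 47.3% to 59.0% around Ccr7, but from 36.5% to 86.1% around S1pr1 and from 26.7% at Lamb3 to 64.2% around Cr2. Smarce1, next to Ccr7, split by replicate, with 68.0% and 73.7% in replicate 3 and 33.5% to 38.6% in the other 4 samples. S1pr1, at 78.4% on average, was above 7 of its 8 neighbours, and Gpr183, at 61.6%, above all 5 of its own. Fcer2a, at 67.5%, lay below all 8 of its neighbours, the lowest of which was at 68.2%.

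**Figure D4:**
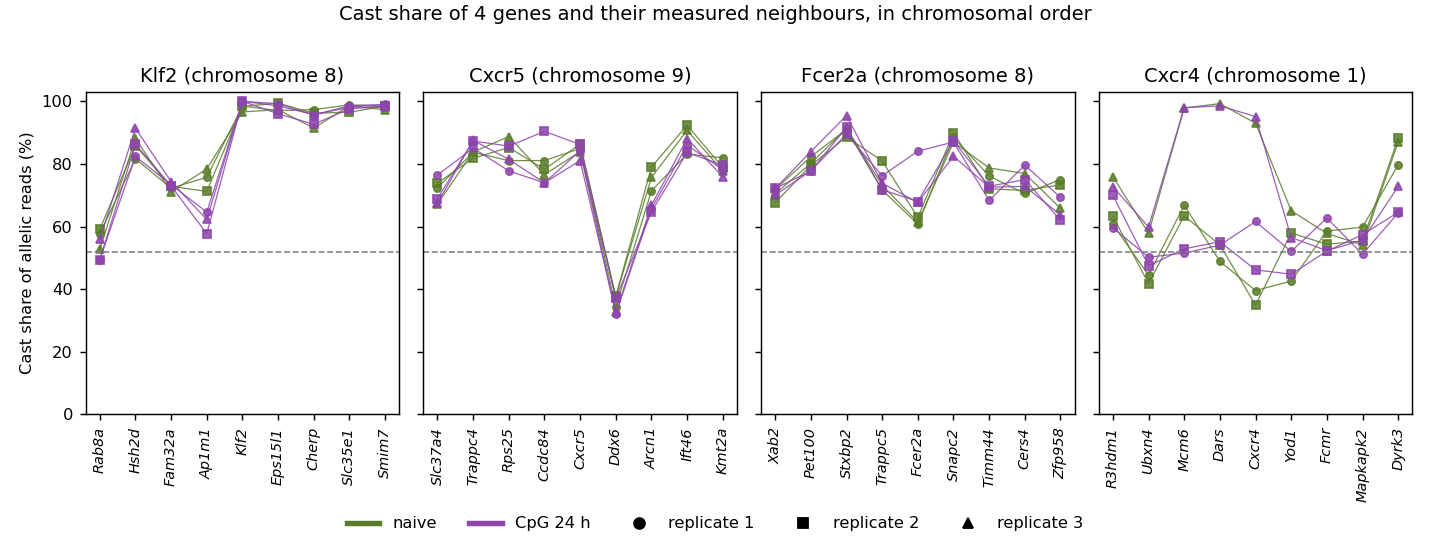
Cast share in percent of Klf2, Cxcr5, Fcer2a and Cxcr4 with up to 4 measured neighbours on each side, evenly spaced in chromosomal order, with 1 point per sample (marker shape by replicate) and a dashed line at the autosomal median of 52.0%. Beside Klf2 a run of 4 genes lies at 91.5% or above, and at Cxcr4 the replicate 3 points leave the others and lie nearer to them at the genes further out, although at Ubxn4 and R3hdm1 both still lie above the other 4.

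Whether the ratio of Cast to 129 reads changed with stimulation was tested for all 10364 matched genes with enough reads, as an interaction of allele and group in edgeR. None of the 8 genes was called, beside 0.917% of all genes tested, and none had an unadjusted p under 0.05. DESeq2 called none of them either. The largest estimate in edgeR's test was that of Klf2, at 1.64 (SE 0.791, adjusted p = 0.583), which had no 129 reads after stimulation. The smallest p was that of Fcer2a, with a log2 ratio change of 0.80 (SE 0.334, adjusted p = 0.452), followed in size among genes with reads on both alleles in all samples by Cxcr4 with 0.74 (SE 2.01, adjusted p = 1). When the replicate number, which paired the samples, was kept as a block, Cxcr4 changed by 0.95 (SE 0.159, adjusted p = 5.21e-06) and Fcer2a by 0.79 (SE 0.209, adjusted p = 0.00953) towards the Cast allele. That fit called 2 of the 8 genes, beside 7.52% of all genes tested. Both calls were lost in the blocked fit without replicate 1 of both groups (Cxcr4 0.65, adjusted p = 0.0646, and Fcer2a 0.36, adjusted p = 0.528), and both stood without replicate 2 or without replicate 3. For S1pr1, Ccr7, Cxcr5, Gpr183 and Cr2 the change lay between -0.17 and 0.08 with standard errors of 0.157 to 0.292, and neither fit called them.

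Genes related to these 8 were counted in the same fits, in which 28.2%, 30.7% and 34.2% of all genes were called higher in the 129, Cast and summed tables. The enzymes and ligands that feed these receptors were mostly hard to see in these cells. Of 13 such genes, 5 were tested when summed, with 4 lower, 1 higher and a median log2 change of -0.91. Cxcl12, Cxcl13, Ch25h and Cyp7b1, which make or are the ligands of Cxcr4, Cxcr5 and Gpr183, had a mean of 10 reads or fewer in each group. Sgpl1, the lyase that breaks down sphingosine-1-phosphate, went from 134 ± 14.2 to 71.3 ± 3.09 CPM (mean ± SD, n = 3) and fell by 0.91 (SE 0.112, adjusted p = 6.67e-05) on the log2 scale. Plpp3, a lipid phosphatase acting on the same lipid, fell by 3.12 (SE 0.317, adjusted p = 1.90e-05), whereas its relative Plpp1 rose by 2.25 (SE 0.233, adjusted p = 2.16e-05).

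Of 16 other migration receptors tested when summed, 14 were lower, 1 was higher and 1 was not called, with a median of -2.19, and on the 129 and the Cast allele 12 of 14 and 11 of 13 were lower. Cnr2, the cannabinoid receptor that helps to hold B cells in the marginal zone, went from 101 ± 13.4 to 9.24 ± 0.995 CPM and fell by 3.45 (SE 0.158, adjusted p = 2.40e-07). S1pr3 fell by 3.15 (SE 0.489, adjusted p = 0.00115) and S1pr4 fell by 2.97 (SE 0.260, adjusted p = 7.46e-06) on the log2 scale, and the lysophosphatidic acid receptor Lpar6 fell by 2.35 (SE 0.201, adjusted p = 6.31e-06). Cd69, whose protein pulls S1PR1 from the cell surface, fell by 0.99 (SE 0.286, adjusted p = 0.0169) when summed. Its log2 change was -0.53 (adjusted p = 0.189) on the 129 and -2.01 (adjusted p = 2.06e-04) on the Cast allele, and without naive sample 2 the 129 change was called as well (-0.81, adjusted p = 0.00714). The alleles of Cd69 differed in this by -1.48 (SE 0.0870, adjusted p = 0.00107) in edgeR's ratio test without the block. That fit called 0.917% of all genes tested and none of the 8 genes. With the replicate block Cd69 was called too, as were Cxcr4 and Fcer2a. Ccr9, the exception chosen after its values were seen, rose by 2.94 (SE 0.512, adjusted p = 6.44e-04).

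Among integrins and adhesion genes 12 of 17 were lower and 3 higher when summed, with a median of -0.87. Itgb7 fell by 4.75 (SE 0.448, adjusted p = 7.33e-05), and its partner Itga4 fell by 2.50 (SE 0.218, adjusted p = 1.24e-05). Itgax, a gene that macrophages and dendritic cells also express, fell by 5.21 (SE 0.419, adjusted p = 4.17e-06). The 3 that rose, named after their values were seen, were Cd44 by 2.57 (SE 0.221, adjusted p = 1.14e-05), Itgb1 by 1.33 (SE 0.173, adjusted p = 1.17e-04) and Itgal by 0.54 (SE 0.112, adjusted p = 0.00197). Cd44 and Itgb1 were called higher on both alleles in edgeR's test. Itgal changed by 0.89 (adjusted p = 3.69e-04) on the 129 but by 0.06 (adjusted p = 0.776) on the Cast allele.

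The machinery below the receptors was mixed. Of 36 tested genes of chemokine receptor signalling 23 were lower, 6 higher and 7 not called, with a median of -0.57. Rgs1, a GTPase activator that damps chemokine receptors, went from 341 ± 157 to 1.73 ± 1.81 CPM and fell by 7.60 (SE 0.646, adjusted p = 5.65e-05), and Rgs2 fell by 3.63 (SE 0.207, adjusted p = 8.05e-07). Arrb1, an arrestin, fell by 2.70 (SE 0.170, adjusted p = 9.96e-07), and Rasgrp2, which activates Rap1 for integrin-dependent arrest, fell by 2.71 (SE 0.171, adjusted p = 1.01e-06). The largest rises in this list, named after their values were seen, were those of Rgs16, another GTPase activator, by 2.89 (SE 0.194, adjusted p = 1.39e-06) and of the GTPase gene Rap1a by 0.92 (SE 0.258, adjusted p = 0.0128). Rap1a changed by 0.10 (adjusted p = 0.743) on the 129 and by 0.98 (adjusted p = 0.0141) on the Cast allele. The other 4 that rose were Pik3cg, Gnai3, Rac1 and Arpc1b, by between 0.32 and 0.61. Pik3cg and Rac1 were called higher on both alleles in edgeR's test. Gnai3 was not called on the 129 allele (0.26, adjusted p = 0.205). The alleles of Arpc1b went in opposite directions, with -0.29 (adjusted p = 0.0771) on the 129 and 0.44 (adjusted p = 0.0252) on the Cast allele. With stimulated Rgs1 at a mean of 8.67 reads, its fitted change rests on few reads.

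Of 23 tested KLF and FOXO genes and their regulators 15 were lower, 1 was higher and 7 were not called, with a median of -1.17. Klf6 fell by 3.44 (SE 0.404, adjusted p = 2.18e-04), Klf3 fell by 2.64 (SE 0.263, adjusted p = 3.56e-05) and Klf13 fell by 2.14 (SE 0.118, adjusted p = 4.99e-07) on the log2 scale. Foxo1, which drives Klf2 and Ccr7 in lymphocytes, went from 424 ± 25.9 to 189 ± 20.7 CPM and fell by 1.17 (SE 0.112, adjusted p = 1.27e-05). Kmt2d, a histone methyltransferase, fell by 1.65 (SE 0.206, adjusted p = 9.41e-05). Klf16 was the 1 gene that rose when summed, by 0.44 (SE 0.169, adjusted p = 0.0401). It was called on neither allele in edgeR's test, with 0.43 (adjusted p = 0.212) on the 129 and 0.40 (adjusted p = 0.174) on the Cast allele. Mapk7 and Map2k5, kinases upstream of MEF2 factors, were not called, with log2 changes of -0.40 (adjusted p = 0.148) and -0.27 (adjusted p = 0.122), nor was Mef2a with 0.23 (adjusted p = 0.240). Mef2c and Mef2d were called lower on both alleles in edgeR's test. On the 129 and the Cast allele the log2 changes were -1.33 and -1.67 for Mef2c and -1.65 and -1.59 for Mef2d. Klf16, Mapk7, Map2k5, Mef2a, Mef2c and Mef2d were named after their values were seen.

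Of 32 surface genes of follicular and marginal zone B cells tested when summed, 22 were lower, 4 were higher and 6 were not called, with a median of -1.002. Ighd, the IgD heavy chain of naive cells, went from 3308 ± 229 to 129.9 ± 36.0 CPM and fell by 4.67 (SE 0.212, adjusted p = 2.51e-07). Fcmr, the IgM Fc receptor, fell by 4.53 (SE 0.459, adjusted p = 1.23e-04), Cd74, the class II invariant chain, fell by 3.28 (SE 0.209, adjusted p = 1.20e-06) and Siglecg, an inhibitory lectin, fell by 3.04 (SE 0.217, adjusted p = 3.75e-06). Notch2, the receptor that drives marginal zone fate, fell by 0.98 (SE 0.101, adjusted p = 2.05e-05). Adam10, a protease that cleaves CD23 and Notch2, fell by 0.46 (SE 0.113, adjusted p = 0.00495) when summed. On single alleles its changes were -0.46 (adjusted p = 0.0756, and 0.0217 with the replicate block) on the 129 and -0.53 (adjusted p = 0.00920, and 0.0658 without replicate 3 of both groups) on the Cast allele. The 4 that rose, named after their values were seen, were Cd24a by 1.77 (SE 0.193, adjusted p = 3.36e-05), Cd36 by 1.45 (SE 0.350, adjusted p = 0.00866), Cd83 by 1.43 (SE 0.129, adjusted p = 8.94e-06) and Tnfrsf13b by 0.35 (SE 0.136, adjusted p = 0.0453). Among those not called, Ighm changed by -0.20 (adjusted p = 0.174) and Fcgr2b by -0.04 (adjusted p = 0.908). The general B cell markers were lower too, 8 of 8 with a median of -1.60, from -0.47 for Pax5 to -2.05 for Blk. Of the 8 homing and follicular genes, 7 had a larger fall than any of these markers, and Ccr7 a smaller one than 7 of them.

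**Figure D5:**
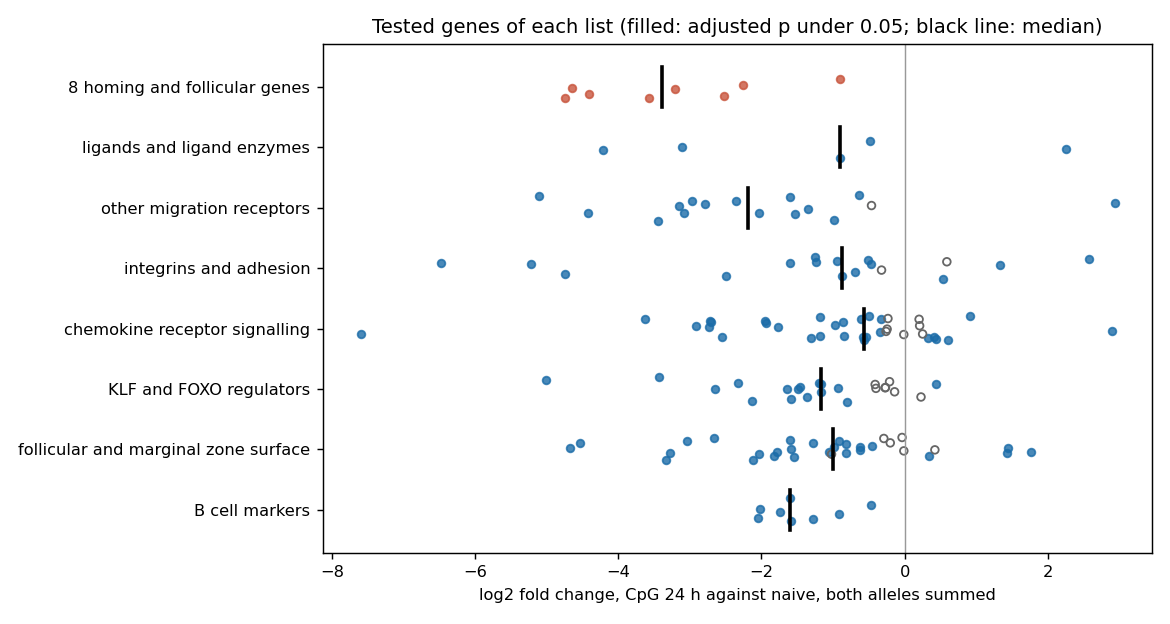
Log2 fold change after CpG, with both alleles summed, of each tested gene in the 8-gene group (red) and in lists of related genes and B cell markers (blue), filled where the adjusted p was under 0.05, with a black line at each list's median. The median of the 8 genes is -3.39, and those of the other lists run from -0.57 for chemokine receptor signalling to -2.19 for other migration receptors.

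The gene with the most similar profile to each of these genes was sought among 8647 genes tested on both alleles, by the root mean square difference of mean-centred log2 CPM over 12 values, 1 per sample and allele. Cxcr5 was nearest to H2-DMa (0.126), Gpr183 to H2-Aa (0.130), Ccr7 to Ncoa2 (0.137) and Cr2 to Cmah (0.160). S1pr1 was nearest to I830077J02Rik (0.268) and Fcer2a to Tcp11l2 (0.308). Cxcr4 had the most distant nearest gene, Btla (0.607), which was also among the 48 genes read almost only from the Cast allele in replicate 3. Klf2 was not tested on the 129 allele in the main fit and has no such gene.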

How the data were processed

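The authors deposited, for each sample, 2 tables of read counts per gene, whose gene identifiers belong to the annotations of 129S1/SvImJ and of CAST/EiJ. The counts were whole numbers with no normalization. STAR, featureCounts and Subread 2.0.0 with the build mm10 are named per the submitters' processing notes, with no role given, and the tables end in rows of unassigned reads of the kind htseq-count writes, which stayed out of all totals. How a read was given to a strain and whether strand was used in counting are not given in the sources used here. Cxcr5 overlaps Bcl9l, Gpr183 overlaps Ubac2, Fcer2a overlaps Trappc5 and Cr2 overlaps Gm32313 in the RefSeq annotation of GRCm38.p6, and reads of such pairs cannot be told apart without strand.

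Each strain's tables, and their sum over 28374 genes matched by name and chromosome, were tested with edgeR 4.0.16 in R 4.3.3 (robust quasi-likelihood test, filterByExpr, TMM factors, Benjamini-Hochberg adjustment at 0.05). The standard error was derived from the F statistic. The allele ratio was tested as an interaction with a term for each sample, for genes that reached 10 reads, both alleles together, in 3 or more samples. DESeq2 1.42.0 served as an alternative. The procedures were tested on simulated data. Replicate numbers come from the sample titles. Deviations from the group means correlated between samples of the same number. The correlations were 0.447 to 0.612 in the 129 tables, 0.170 to 0.255 in the Cast tables and 0.588 to 0.673 in Cast shares, so the numbers were taken to pair the samples. All other pairs had negative correlations, which are no separate evidence, because deviations within a group cancel out. The design without the block remained the main one. The labels do not say that samples came from separate animals, so p-values measure the spread between these samples. Library pairs of 1 group had chi-square values per degree of freedom of 5.96 to 15.7, so none agreed within sampling noise. Wilson intervals have a level of 95%. They and the floors reflect counting error alone, because the labels' protocols name no molecular identifiers and reads are then not independent molecules.

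The 8 genes and all lists were chosen with earlier results of these data known. From each list up to 4 genes were named, those called on both alleles in the same direction with a mean of at least 30 reads in either group, by the largest mean change, and in addition Cd69, Foxo1, Adam10 and Notch2. A few further genes selected in this way are not reported here. Genes of ligands with no call are given only by their reads. The summed table was used for lists.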

Additional observations from a re-analysis of the deposited data

Results flagged for a closer look

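The ratio of Cast to 129 reads of Cxcr4 and Fcer2a is listed here because its change with stimulation, tested as an interaction of allele and group in edgeR with the replicate number as a block, passed an adjusted p of 0.05. For Cxcr4 the log2 ratio rose by 0.9462, and the Cast share was higher after stimulation in 3 of 3 replicate pairs, by 22.1, 11.3 and 2.09 percentage points. For Fcer2a the log2 ratio rose by 0.7913, and the share was higher in 3 of 3 pairs, by 23.3, 5.06 and 6.29 points. Both genes were chosen by a test on the same paired reads, so the common direction of their pairs is no separate evidence. The share of all genes that rise in every pair was not counted. Within a pair, the 95% Wilson intervals overlapped for Cxcr4 in replicate 3 and for Fcer2a in replicates 2 and 3. Neither gene was called without the block, and neither was called in the blocked fit without replicate 1 of both groups. In replicate 3 Cxcr4 was read almost only from the Cast allele before and after stimulation, as were Dars and Mcm6 beside it.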

How the results depend on the processing

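The 8 genes kept the direction of their falls in every fit that was run. Leaving out 1 sample at a time kept between 6 and 7 of them called lower in the 129 tables, between 7 and 8 in the Cast tables and 8 in the summed table, while the genes called overall numbered between 5216 and 5477 on the 129 and between 5987 and 6319 on the Cast allele. Without the filter on low counts, 129 Klf2 entered edgeR's test and was called lower (-6.46, adjusted p = 0.00155). Besides the leave-one-out losses of Cxcr4, its 129 call was lost without the filter on low counts (-3.70, adjusted p = 0.114). That of Itga4 (-2.46, adjusted p = 0.0426) was lost without that filter, without naive sample 2 or 3 or stimulated sample 1 or 3, and without replicate 3 of both groups (-2.26, adjusted p = 0.223). The replicate block, DESeq2 and other size factors ended no call of a fall among the 8 genes.
The allele ratio test depended on the design. It called 95 genes, between 14 and 26 without 1 sample, 2 without replicate 3 of both groups, and 779 with the replicate block. The blocked fit called 469, 555 and 533 genes without replicate 1, 2 or 3 of both groups. The replicate block called 2 of the 8 genes, and again 2 without replicate 2 and 2 without replicate 3, and 0 without replicate 1. The fits that drop a replicate of both groups were chosen after seeing the data. Ratio changes near 0 turned their sign, and so did the larger one of Cxcr4, which was 0.74 in the main fit. In fits without the block, that of Cxcr4 became -0.172 without naive sample 1, -0.288 without naive sample 2 and -0.263 without stimulated sample 3. That of S1pr1 became 0.01 with a separate library size for each allele (0.0106) and 0.13 (0.128) in the blocked fit without replicate 2, where Cr2 became -0.05 (-0.0455), and Gpr183 became 0.03 (0.0318) without replicate 3 and 0.05 (0.0528) with the block as well. Over fits without 1 sample the ratio change ran from -0.289 to 0.250 for S1pr1, -0.261 to 0.0165 for Cxcr5, -0.288 to 1.99 for Cxcr4, -0.217 to 0.0211 for Gpr183 and -0.0813 to 0.224 for Cr2. The Cast share differences ran from -3.47 to 2.98 points for S1pr1, -2.43 to 0.137 for Cxcr5, -1.92 to 30.4 for Cxcr4, -3.52 to 0.222 for Gpr183 and -1.39 to 3.85 for Cr2. The cause of these turns was not tested. Depth limits the 129 reads of Klf2 and all shares after stimulation, where Fcer2a had between 96 and 113 reads and Klf2 between 9 and 34. Genes of the lists named after their values were seen were not refitted under these alternatives.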
